A study of Mus musculus with 3 samples.

Results

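Ligand-gated nuclear receptors are transcription factors that bind DNA directly and change their partners when a small lipophilic molecule occupies them. The 10 receptor genes described here were taken by name from 22457 measured genes, and their products answer retinoids, glucocorticoids, vitamin D, oxysterols or fatty acids. They are Nr3c1 (the glucocorticoid receptor), Rara and Rarg (retinoic acid receptors, RAR), Vdr (the vitamin D receptor), Rxra and Rxrb (retinoid X receptors, RXR), Nr1h2 and Nr1h3 (liver X receptors, LXR) and Ppard and Pparg (peroxisome proliferator-activated receptors, PPAR). The other 39 genes of the nuclear receptor family served as the comparison set. That set includes Rarb, Rxrg and Ppara, the remaining isotypes for the same ligands. The rule is a list of names and uses no measured value, though the names were chosen with earlier results of these data known.

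The RNA was polyadenylated RNA of primary regulatory T (Treg) cells, a suppressive CD4 T cell lineage that depends on Foxp3, from a male adult mouse source aged 4 months. The labels name 3 technical libraries of 1 biological replicate, which form 1 group with no treatment named, so no condition could be compared. The sources used here do not give strain, organ, sort or number of animals, and every SD below is the spread between libraries of 1 sample. Library totals were 3316275, 3079004 and 2782259 counts in libraries 1, 2 and 3, at which 3 counts equal 0.905, 0.974 and 1.08 CPM (counts divided by the total of the library, times 1e6). Of the markers of the labelled cell type, Foxp3, Il2ra, Ctla4, Ikzf2, Cd4, Cd3e and Tnfrsf18, all 7 were detected, meaning 1 CPM or more in each library, and their median was 403 CPM.

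RAR, LXR, PPAR and the vitamin D receptor bind DNA as heterodimers with RXR, which serves them all as a shared partner. The glucocorticoid receptor instead waits in the cytoplasm on HSP90 chaperones and binds DNA as a homodimer once hormone arrives. In T cells, retinoic acid is known to promote gut homing and to aid Foxp3 induction, glucocorticoids restrain inflammatory gene expression, and PPAR-gamma marks the Treg cells that live in visceral fat.

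The receptors resemble each other most in the DNA-binding domain, so a stretch of it is printed to show how far the isotypes could be told apart by their reads. Each sequence is the 78 coding bases that open the first zinc finger, 5′ to 3′, read from GENCODE M21 transcripts of GRCm38. The 15 capitals encode the P box, 5 residues of which some touch the bases of the half-site. Of the 10 receptors, 9 encode the same P box and 1, the glucocorticoid receptor, encodes another.
Rara: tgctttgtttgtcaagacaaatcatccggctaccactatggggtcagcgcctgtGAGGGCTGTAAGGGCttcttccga
Rarg: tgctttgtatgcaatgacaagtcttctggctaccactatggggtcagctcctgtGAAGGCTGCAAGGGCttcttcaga
Rxra: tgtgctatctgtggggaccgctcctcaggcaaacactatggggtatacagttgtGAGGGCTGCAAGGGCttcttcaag
Rxrb: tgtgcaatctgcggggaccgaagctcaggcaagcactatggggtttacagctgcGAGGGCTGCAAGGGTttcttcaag
Nr1h2: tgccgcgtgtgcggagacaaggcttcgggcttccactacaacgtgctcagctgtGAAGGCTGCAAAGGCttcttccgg
Nr1h3: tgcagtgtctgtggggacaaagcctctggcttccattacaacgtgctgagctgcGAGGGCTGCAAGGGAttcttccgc
Ppard: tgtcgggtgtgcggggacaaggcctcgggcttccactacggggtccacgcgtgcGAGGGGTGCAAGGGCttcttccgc
Vdr: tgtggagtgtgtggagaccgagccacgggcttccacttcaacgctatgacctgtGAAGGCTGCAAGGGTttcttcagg

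The RXR pair was identical at 68 of the 78 bases (87.2%) and encoded the same 26 residues. Rara and Rarg were identical at 67 bases (85.9%) and 24 residues, and the LXR pair at 63 bases (80.8%) and 25 residues. These differences are scattered through the stretch, and the longest run shared by the coding sequences of a pair was 29 bases, in Rxra and Rxrb. No coding 31-mer of the 9 receptor genes with the common P box occurred in a transcript of another gene. In the glucocorticoid receptor gene, 30 of 2352 coding 31-mers (1.28%) did, and all 30 lay in a CAG-type triplet repeat. Exons of 1 receptor gene overlapped those of another annotated gene: Nr1h3 shares 34 exon bases, and 0 coding bases, with Gm13783 on the same strand.

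Binding sites are printed for the few genes whose promoter held a strict form of a receptor element, because the counts of such genes are given further on. Promoters were the 250 bases before to the 50 after the gene start in RefSeq GRCm38.p6, searched on both strands in 27025 genes. Elements were the direct repeats DR1 (AGGTCANAGGTCA), DR4 (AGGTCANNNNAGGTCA) and DR5 (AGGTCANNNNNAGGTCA), the retinoic acid response element RARE (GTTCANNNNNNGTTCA), which has the DR5 spacing with other half-site letters, and the glucocorticoid response element GRE (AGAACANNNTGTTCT). They were found in 13 (0.0481%), 4 (0.0148%), 3 (0.0111%), 24 (0.0888%) and 3 (0.0111%) of these promoters. None of the 9 receptor genes with a promoter in the table held any of them. Of the 194 genes of all lists, the 10 receptors included, 146 had a promoter there. Of these, 4 related genes held an element, which stands in capitals in the following windows.
Rarb, RARE, chr14:16575483-16575558, minus strand: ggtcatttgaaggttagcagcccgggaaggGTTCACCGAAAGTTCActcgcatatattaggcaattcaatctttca
Cyp26a1, RARE, chr19:37697746-37697821, plus strand: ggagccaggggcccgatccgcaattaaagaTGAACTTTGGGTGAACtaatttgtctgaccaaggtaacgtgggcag
Sgk1, GRE, chr10:21993671-21993745, plus strand: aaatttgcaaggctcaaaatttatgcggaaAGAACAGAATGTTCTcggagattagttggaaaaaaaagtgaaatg
Bco1, DR1, chr8:117095779-117095851, plus strand: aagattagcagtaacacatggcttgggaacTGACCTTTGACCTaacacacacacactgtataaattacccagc

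The first base of the element lay 52 bases before the start of Rarb, 32 before that of Cyp26a1, 189 before that of Sgk1 and 56 before that of Bco1. These matches are descriptions of letters, not evidence of binding in these cells.

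Of the 10 receptors, 8 were detected, against 10611 of all 22457 genes (47.3%) and 16 of the 39 other nuclear receptors. Since Rarb, Rxrg and Ppara, with few or no counts, fall outside the 10, the contrast in detection and in median is shaped by the choice of genes. The 10 had a median of 26.6 CPM. The median was 0.302 CPM over the 39 other family members and 1.08 CPM over all 22457 genes (17.99 CPM over the 15171 with any count). Their summed level was 564, 551 and 525 CPM in libraries 1, 2 and 3, so the total moved little while single genes moved more. In a bulk sample, fewer cells with a transcript and less of it per cell cannot be told apart.

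**Figure D1:**
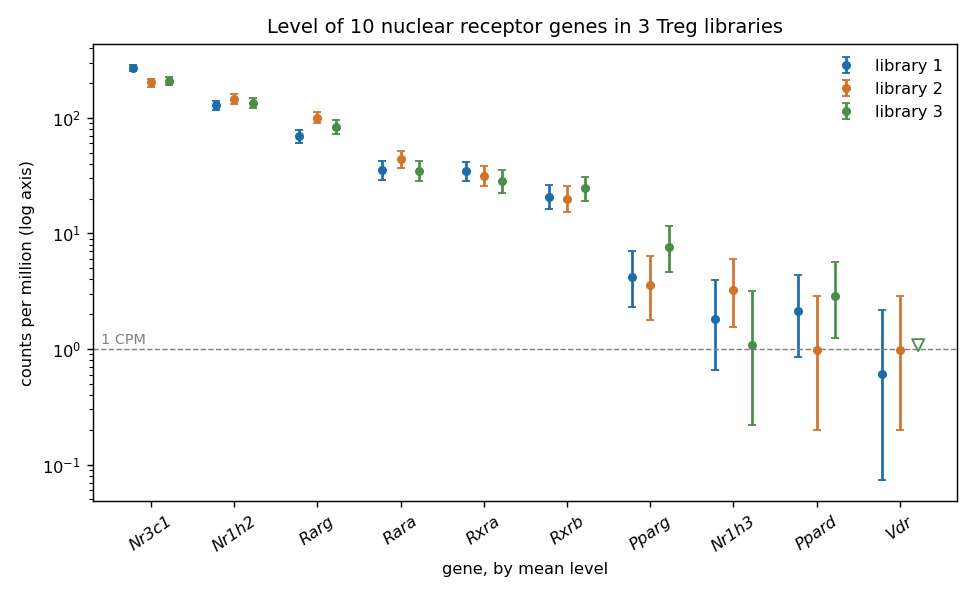
Level of each receptor gene in CPM (log axis) in libraries 1, 2 and 3, with exact 95% Poisson intervals as bars; the open triangle marks the limit that 0 counts of Vdr allow in library 3. Levels ran from 226 CPM for Nr3c1 to 0.526 CPM for Vdr, and the dashed line is the 1 CPM needed for detection.

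Per coding base, the order of the receptors was Nr1h2, Nr3c1, Rarg, Rara, Rxra, Rxrb, Pparg, Nr1h3, Ppard and Vdr. In CPM per kilobase (kb) of coding sequence, Nr1h2 had 102 ± 6.62, Nr3c1 95.01 ± 15.6 and Rarg 55.2 ± 10.2 (SD over libraries). On the same scale Rara had 24.3 ± 3.19, Rxra 22.5 ± 2.24 and Rxrb 13.8 ± 1.55. At the low end, Pparg had 3.38 ± 1.41, Nr1h3 1.53 ± 0.827, Ppard 1.51 ± 0.725 and Vdr 0.415 ± 0.388 CPM per coding kb. The libraries' ranges did not overlap at 4 of the 9 steps, between Nr3c1 and Rarg, Rarg and Rara, Rxra and Rxrb, and Rxrb and Pparg. At the other 5 steps the neighbours did not differ beyond their spread. Nr1h2 and Nr3c1 changed places between libraries, with ratios per coding base of 0.844, 1.28 and 1.15 in libraries 1, 2 and 3. Without library 2 the mean ratio of Nr1h2 to Nr3c1 was 0.999, and Rxra also passed Rara and Ppard passed Nr1h3.

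Across the whole family, Nr1h2 and Nr3c1 had the ranks 3 and 4 of 49 per coding base. Above them were Nr4a1, an orphan receptor induced by antigen receptor signalling, at 168 CPM per coding kb, and Rora, at 144. Nr2c2, the testicular receptor 4 gene, had rank 6 at 34.6 CPM per coding kb. Among all 14916 coding genes with a count, the order of the members in percentiles of CPM per coding kb was 84.6 for Nr1h2, 83.7 for Nr3c1, 74.8 for Rarg, 60.4 for Rara, 59.0 for Rxra and 50.9 for Rxrb. Pparg, Nr1h3, Ppard and Vdr were at percentiles 35.2, 29.5, 29.4 and 20.0.

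**Figure D2:**
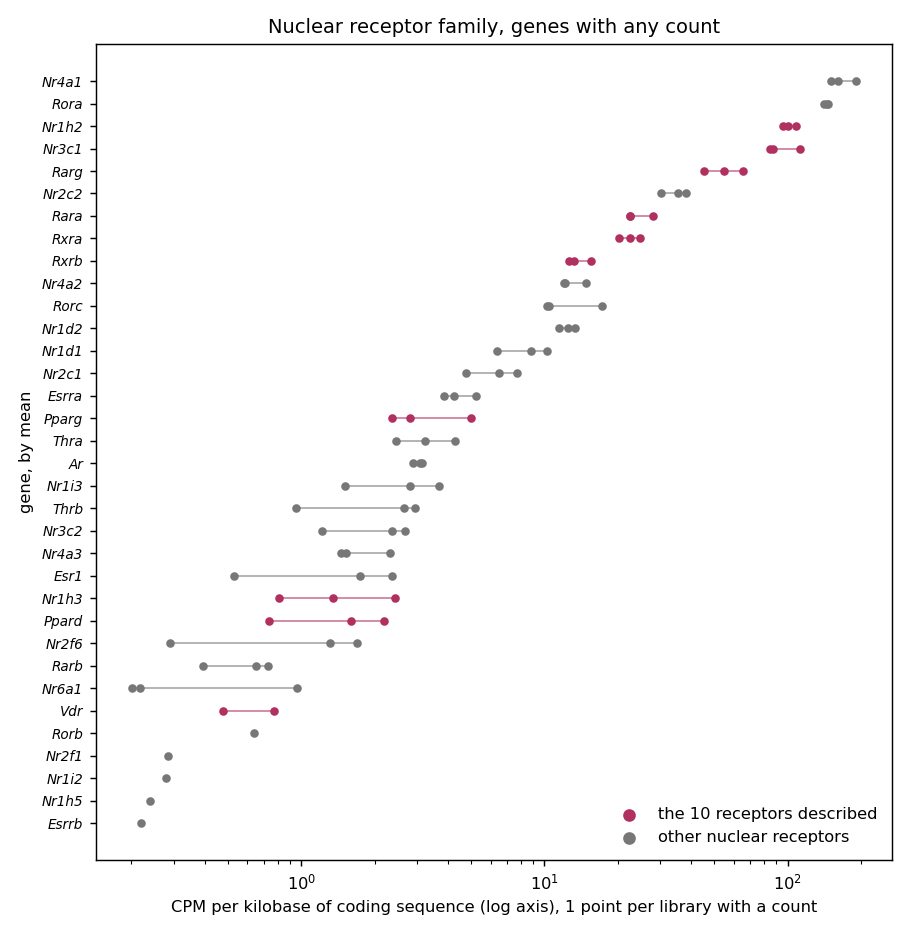
CPM per kb of coding sequence (log axis) of each nuclear receptor gene with any count, by mean, with 1 point per library that had a count. The 10 receptors described (red) include 3 of the top 5 of the family, Nr1h2, Nr3c1 and Rarg, and also genes near its lower end, such as Vdr; grey points are other nuclear receptors.

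Nr3c1 (chromosome 18, 39410545 to 39519421, minus strand, GRCm38) encodes the receptor through which cortisol and corticosterone act. It had 891, 621 and 578 counts in libraries 1, 2 and 3, or 269, 202 and 208 CPM. Library 1 stood above the other libraries, which lay within each other's counting intervals (251 to 287, 186 to 218 and 191 to 225 CPM). The mean was 226 ± 37.1 CPM (SD over libraries). On the log2 scale, library 1 differed from library 2 by 0.41 ± 0.075 and from library 3 by 0.37 ± 0.077 (counting SE), and library 2 from library 3 by -0.04 ± 0.083.

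The libraries differed in Nr3c1 beyond Poisson noise in a chi-square test of counts against library totals (adjusted p = 2.47e-07, Benjamini-Hochberg over 10043 genes). Against the spread between libraries, which edgeR's quasi-likelihood test estimates, they did not (smallest adjusted p = 0.623). Without library 1 the chi-square adjusted p was 0.790. The chi-square test called 2277 of the 10043 genes with 30 or more summed counts (22.7%), and 22.2% of the 6039 genes with between 200 and 2090 summed counts, so a call is common at this depth. Of the 7 receptors with 30 or more summed counts, 2 were called, Nr3c1 and Rarg. In edgeR, 44 genes (0.438%) differed in any library and 0 of the receptors did, while 2 receptors had an unadjusted p under 0.05; DESeq2 also called 0 receptors.

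Transcripts were counted for proteins that hold the glucocorticoid receptor and for enzymes that make or convert its hormone. Of 10 such genes, 7 were detected, against 47.3% of all genes, and the list had a median of 74.8 CPM. Hsp90ab1, which encodes an HSP90 chaperone, had 3753, 3554 and 3489 counts (1180 ± 65.1 CPM). Stip1, which links HSP70 to HSP90, had 371 ± 4.69 CPM, and the co-chaperone Fkbp4 had 177 ± 10.6 CPM. The other HSP90 gene, Hsp90aa1, had 110 ± 11.6 CPM.

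Hsd11b1, which encodes the enzyme that regenerates active glucocorticoid from its inert form, had 1077, 1011 and 939 counts. That was 325, 328 and 337 CPM in libraries 1, 2 and 3, so this gene was level between libraries. Hsd11b2, the enzyme of the opposite direction, had 3, 0 and 0 counts. The steroid-synthesis genes Cyp11a1 and Cyp11b1 had 1, 1 and 0 counts and no count at all.

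Of 12 genes known to respond to glucocorticoids, 10 were detected, against 47.3% of all genes. The median level of the list was 67.3 CPM. Nfkbia, the inhibitor of NF-kappaB, had 605 ± 58.3 CPM, Il7r, the IL-7 receptor chain, 395 ± 32.9 CPM, Sgk1, a serum- and glucocorticoid-induced kinase, 164 ± 16.0 CPM, and Tsc22d3, which encodes GILZ, 149 ± 23.1 CPM. Dusp1, a phosphatase of MAP kinases, had 105 ± 12.0 CPM. Sgk1, whose promoter holds the GRE printed above, had 555, 550 and 409 counts. These genes also answer other signals, and no hormone was varied here.

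Of the 10 tested, 5 differed between libraries by the chi-square test, against 22.7% of all genes tested, in no common order. Ddit4, an inhibitor of mTORC1, was at 57.3, 75.02 and 46.0 CPM in libraries 1, 2 and 3 (adjusted p = 0.00045, chi-square test over all genes). Tsc22d3 was at 168, 156 and 123 CPM (chi-square adjusted p = 0.00045). Library 3 was lowest in both genes, while Nr3c1 was lowest in library 2 and nearly as low in library 3. Nfkbia had nearly equal counts of 1814, 1858 and 1846 although the library totals differ, so its CPM was highest in the smallest library, library 3.

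The retinoic acid receptors were represented by Rarg and Rara, and the third isotype, Rarb, had 4, 2 and 3 counts. Rarg (chromosome 15, 102234938 to 102257517, minus strand) had 229, 308 and 232 counts, or 69.1, 100.03 and 83.4 CPM. Library 2 stood highest and library 1 lowest, with counting intervals of 89.2 to 112 and 60.4 to 78.6 CPM that did not overlap. The mean was 84.2 ± 15.5 CPM, and on the log2 scale library 1 minus library 2 was -0.53 ± 0.13 (counting SE).

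Rarg differed between libraries by the chi-square test (adjusted p = 0.00143, Benjamini-Hochberg over 10043 genes) and not by edgeR's test (smallest adjusted p = 0.977). With library 1 left out the chi-square adjusted p was 0.154, with library 2 left out 0.162, and with library 3 left out 0.000873. Library 1 was thus highest of the libraries in Nr3c1 and lowest in Rarg.

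Rara (chromosome 11, 98927818 to 98974942, plus strand) had 116, 134 and 97 counts, or 34.98, 43.5 and 34.9 CPM. Its mean was 37.8 ± 4.97 CPM, and all 3 counting intervals overlapped. The libraries were not called different in Rara (chi-square adjusted p = 0.283). Rara made up 33.2, 29.9 and 29.1% of the RAR signal per coding base in libraries 1, 2 and 3 (30.7 ± 2.17%), so Rarg was the larger part in every library. By counts alone, the share of Rara was 33.6% (exact Clopper-Pearson 95% interval 28.7 to 38.9), 30.3% (26.1 to 34.8) and 29.5% (24.6 to 34.7).

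The RXR pair, the common heterodimer partners, had closer levels. Rxra (chromosome 2, 27676440 to 27762957, plus strand) had 115, 97 and 79 counts, or 34.7, 31.5 and 28.4 CPM. Rxrb (chromosome 17, 34031812 to 34038399, plus strand) had 69, 61 and 68 counts, or 20.8, 19.8 and 24.4 CPM. Neither gene was called different between libraries (chi-square adjusted p = 0.554 and 0.610), and Rxrg had no count.

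Rxra was 65.2, 64.1 and 56.6% of the RXR signal per coding base (61.9 ± 4.67%). When the levels were divided by all annotated exon bases instead of coding bases, the share of Rxra was 51.4%, so the lead of Rxra over Rxrb depends on the length used. Together the RXR genes reached 38.0, 35.1 and 35.8 CPM per coding kb. The 7 partner genes among the receptors described, of RAR, LXR, PPAR and Vdr together, reached 169, 208 and 186 CPM per coding kb. The transcripts of these partners thus exceeded those of RXR by 4.46, 5.94 and 5.19 times per coding base (5.19 ± 0.741). Most of the partner sum came from Nr1h2 and Rarg, and other nuclear receptors were not counted in it.

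**Figure D3:**
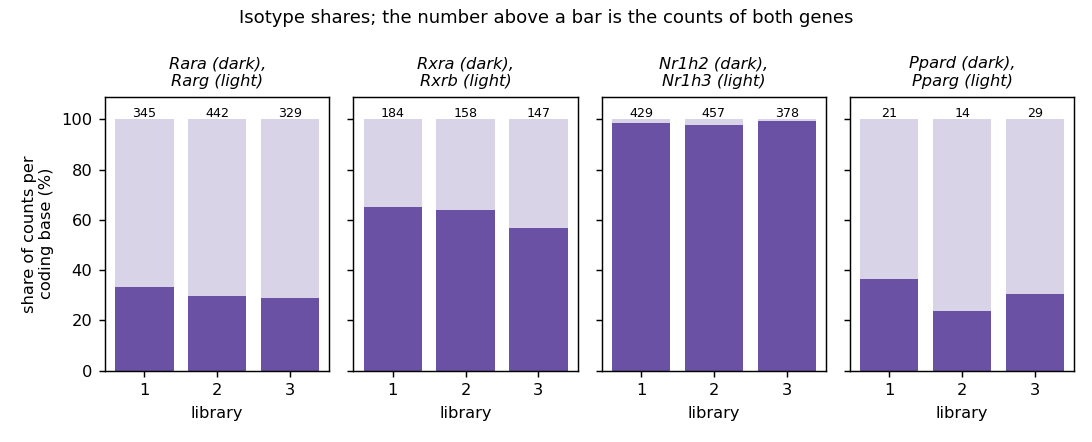
Share of the first-named gene (dark) and the second-named gene (light) in the counts per coding base of each isotype pair, in percent, in libraries 1, 2 and 3; the number above a bar is the counts of both genes. Rara stayed between 29.1 and 33.2%, Rxra between 56.6 and 65.2% and Nr1h2 between 97.8 and 99.2%, while the PPAR pair rests on at most 29 counts a library.

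Genes that make, carry and break down retinoic acid were mostly at or near 0. Of 17, 3 were detected, against 47.3% of all genes, and the list's median was 0.108 CPM. Dhrs3, which reduces retinal back to retinol, had 118, 116 and 124 counts (39.3 ± 4.70 CPM), Rdh11, a retinol dehydrogenase, 27.4 ± 1.82 CPM, and Rdh10, which makes retinal, 5, 6 and 5 counts. The retinal dehydrogenases that make retinoic acid were near 0, with 0, 0 and 2 counts of Aldh1a1, 0, 1 and 0 of Aldh1a2 and 0, 1 and 2 of Aldh1a3. Bco1, the carotene-cleaving enzyme whose promoter holds the DR1, had 1, 0 and 0 counts.

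Of 9 genes known to respond to retinoic acid, 5 were detected, against 47.3% of all genes, and the list's median was 5.87 CPM. Itgb7 and Itga4, whose products pair as the gut-homing integrin, had 1214 ± 92.8 and 530 ± 59.5 CPM. Ccr9, the gut-homing chemokine receptor, had 60, 46 and 50 counts (17.0 ± 1.79 CPM), and Tgm2, a transglutaminase, 11, 23 and 19 counts. The RARE-bearing genes Rarb and Cyp26a1 had 4, 2 and 3 and 2, 0 and 2 counts, below detection in these libraries. The chi-square test called 2 of the 5 tested genes different, against 22.7% of all genes tested. Itga4 was at 596, 481 and 513 CPM (chi-square adjusted p = 3.82e-08), with library 1 highest. Itgb7 was at 1123, 1308 and 1212 CPM (chi-square adjusted p = 1.11e-08), with library 2 highest. By edgeR neither was called (smallest adjusted p = 0.872 and 0.969).

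Nr1h2, which encodes the widely expressed LXR-beta (chromosome 7, 44549616 to 44553951, minus strand), was the most even of the abundant receptors. It had 423, 447 and 375 counts, or 128, 145 and 135 CPM, with a mean of 136 ± 8.86 CPM. Its counting intervals overlapped in all libraries, and it was not called different (chi-square adjusted p = 0.312). Its coefficient of variation was 6.52%, near the 4.91% that counting error alone gives, whereas that of Nr3c1 was 16.4% against 3.79%.

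Nr1h3, the LXR-alpha gene of macrophages and liver (chromosome 2, 91184061 to 91202834, minus strand), had 6, 10 and 3 counts, or 1.81, 3.25 and 1.08 CPM. Its intervals overlapped, and its summed counts were below the minimum of 30. At a minimum of 10, the libraries were not called different in Nr1h3 (chi-square adjusted p = 0.342). Nr1h2 was 98.6, 97.8 and 99.2% of the LXR signal per coding base. Nr1h3 was highest in library 2, where 12 monocyte and macrophage markers also summed highest, at 69.2 CPM against 22.0 in library 1 and 32.3 in library 3. Without Cd68, the marker with the most counts, those sums were 47.1 CPM in library 2, 6.33 in library 1 and 15.5 in library 3; 3 of the 12 were detected and Vsig4 had no count. The orders differed at the low end, where Nr1h3 was lowest in library 3 and the marker sums in library 1. The part of such cells in the Nr1h3 counts was not tested.

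Of 6 genes of oxysterol metabolism, 2 were detected, against 47.3% of all genes, and the list's median was 0.222 CPM. The sterol sulfotransferase gene Sult2b1 had 5.92 ± 1.01 CPM. Ch25h, which makes 25-hydroxycholesterol, had 0, 1 and 0 counts.

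Of 9 genes known to respond to LXR, Nr1h3 among them, 8 were detected, against 47.3% of all genes. The list's median was 14.7 CPM. Srebf1, the lipogenic transcription factor gene, had 136 ± 16.2 CPM, Lpcat3, a phospholipid acyltransferase, 71.0 ± 8.58 CPM, Abcg1, a sterol exporter, 55.4 ± 10.4 CPM, Scd2, a desaturase, 37.0 ± 9.61 CPM, and Mylip, which degrades the LDL receptor, 14.7 ± 4.29 CPM. The macrophage exporter Abca1, named after its values were seen, had 9, 9 and 14 counts.

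Of the 7 tested, 4 differed between libraries by the chi-square test, against 22.7% of all genes tested. Apoe encodes an apolipoprotein that macrophages make in quantity. It had 11, 84 and 29 counts, or 3.32, 27.3 and 10.4 CPM (adjusted p = 1.03e-13 by chi-square and 0.000346 by edgeR). It followed the order of the macrophage markers, highest in library 2 and lowest in library 1, and the part of macrophages in its counts was not tested. Abcg1 (47.9, 67.2 and 51.04 CPM, chi-square adjusted p = 0.016) and Srebf1 (128, 154 and 125 CPM, chi-square adjusted p = 0.0187) were also highest in library 2. Scd2 was highest in library 1 (44.6, 40.3 and 26.2 CPM, chi-square adjusted p = 0.00644).

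Pparg (chromosome 6, 115360951 to 115490399, plus strand), the PPAR of adipocytes and fat-resident Treg cells, had 14, 11 and 21 counts. That was 4.22, 3.57 and 7.55 CPM, with intervals of 2.31 to 7.08, 1.78 to 6.39 and 4.67 to 11.5 CPM that overlapped. Library 3 was nominally highest, and the libraries were not called different (chi-square adjusted p = 0.186). The mean was 5.11 ± 2.13 CPM. Adipocyte markers were at or near 0: of 6, 0 were detected, Lep, Plin1 and Cfd had no count, and the sums were 3, 1 and 3 counts.

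Ppard (chromosome 17, 28232700 to 28301474, plus strand), the widely expressed PPAR-delta gene, had 7, 3 and 8 counts, or 2.11, 0.974 and 2.88 CPM. It missed detection by library 2 alone, at 3 counts, and its intervals overlapped. At a minimum of 10 summed counts it was not called different (chi-square adjusted p = 0.431). Ppard was 36.5, 23.8 and 30.4% of the PPAR signal per coding base (30.2 ± 6.31%), and by counts in library 2 the share was 21.4% with an exact interval of 4.66 to 50.8, so the balance of the PPAR pair was not resolved at this depth. By exon bases the share was 13.04%. Ppara, the PPAR of liver, had no count.

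PPARs are known to induce genes of fatty acid oxidation and lipid handling. Of 14 genes that respond to PPAR, 10 were detected, against 47.3% of all genes, and their median was 54.7 CPM. The mitochondrial enzymes Acadvl, Hadha, Acadl and Acaa2 had 426 ± 25.6, 231 ± 11.7, 171 ± 15.9 and 171 ± 27.6 CPM, and the acylcarnitine carrier Slc25a20 had 84.0 ± 1.01 CPM. The fatty acid importer Cd36 had 0, 4 and 2 counts, and Pdk4, a kinase that spares glucose, 1, 0 and 0 counts.

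Of the 10 tested, 4 were called different by the chi-square test, against 22.7% of all genes tested. Fabp5, an intracellular fatty acid carrier, was at 30.2, 21.8 and 48.5 CPM in libraries 1, 2 and 3 (chi-square adjusted p = 2.49e-06), highest in library 3. Acaa2 was also highest there, at 172, 142 and 197 CPM (chi-square adjusted p = 4.94e-05). Cpt1a, the gate of mitochondrial fatty acid import, was at 74.5, 94.2 and 73.3 CPM and Acadl at 157, 188 and 167 CPM, both highest in library 2 (chi-square adjusted p = 0.0295 and 0.0425). The orders of these genes differed, and none was called by edgeR (smallest adjusted p = 0.282, for Fabp5).

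Genes of the tissue-resident Treg program, within which fat Treg cells express Pparg, were detected for 11 of 12, against 47.3% of all genes. Their median was 110 CPM. They included the transcription factor genes Gata3 at 441 ± 54.3 CPM, Rora at 241 ± 5.04 CPM and Batf at 177 ± 17.4 CPM, the chemokine receptor gene Ccr2 at 392 ± 18.2 CPM and Klrg1, an inhibitory receptor gene, at 286 ± 23.7 CPM. Of the 11 tested, 5 differed by the chi-square test, against 22.7% of all genes tested; Irf4 was at 43.1, 46.4 and 29.8 CPM (chi-square adjusted p = 0.0225) and Dgat1, a triglyceride synthase, at 165, 108 and 142 CPM (chi-square adjusted p = 2.8e-07).

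Vdr (chromosome 15, 97854425 to 97910630, minus strand) had 2, 3 and 0 counts, or 0.603, 0.974 and 0 CPM. The 0 in library 3 allows up to 1.08 CPM by the limit of 3 counts, and its exact 95% Poisson interval reaches 1.33 CPM. With no minimum of summed counts, the libraries were not called different in Vdr (chi-square adjusted p = 0.520), so no difference was detectable at this depth. Of 7 vitamin D genes, 0 were detected, against 47.3% of all genes, and their median was 0.336 CPM. Cyp24a1, which degrades active vitamin D and is its best known target, had 0, 0 and 2 counts, and Cyp27b1, which makes the active form, had no count.

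**Figure D4:**
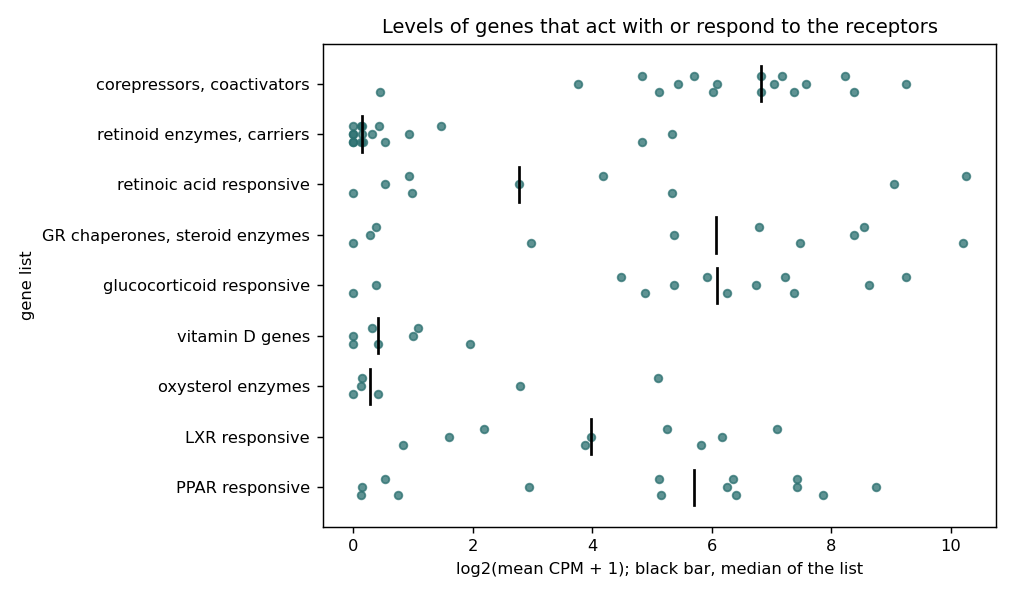
Mean level over the libraries, as log2(CPM + 1), of each gene in the lists of receptor cofactors, ligand enzymes and responsive genes, with the list's median as a black bar. Cofactor genes cluster around a median of 112 CPM, whereas retinoid, vitamin D and oxysterol enzyme genes lie mostly near 0.

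The shared cofactors through which all these receptors act were present almost completely. Of 17 corepressor and coactivator genes, 16 were detected, against 47.3% of all genes. The list's median was 112 CPM, against 1.08 CPM over all genes, 17.99 CPM over those with any count and 45.6 CPM over detected genes. The corepressor Ncor1 had 606 ± 4.73 CPM, the acetyltransferase gene Crebbp 330 ± 8.65 CPM, the coactivator Ncoa3 299 ± 28.7 CPM, the Mediator subunit Med1 189 ± 9.43 CPM and Gps2, a subunit of the corepressor complex, 166 ± 19.7 CPM. The exception was Ppargc1a, the coactivator PGC-1alpha of muscle and brown fat, with 0, 0 and 3 counts.

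Of the 16 tested, 3 were called different by the chi-square test, a share near the 22.7% of all genes tested. Ep300, the other acetyltransferase gene, was at 106, 150 and 133 CPM (chi-square adjusted p = 9.72e-05), lowest in library 1 and highest in library 2. Gps2 was at 153, 155 and 188 CPM and Ncoa3 at 324, 307 and 268 CPM (chi-square adjusted p = 0.00849 and 0.0032).

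**Figure D5:**
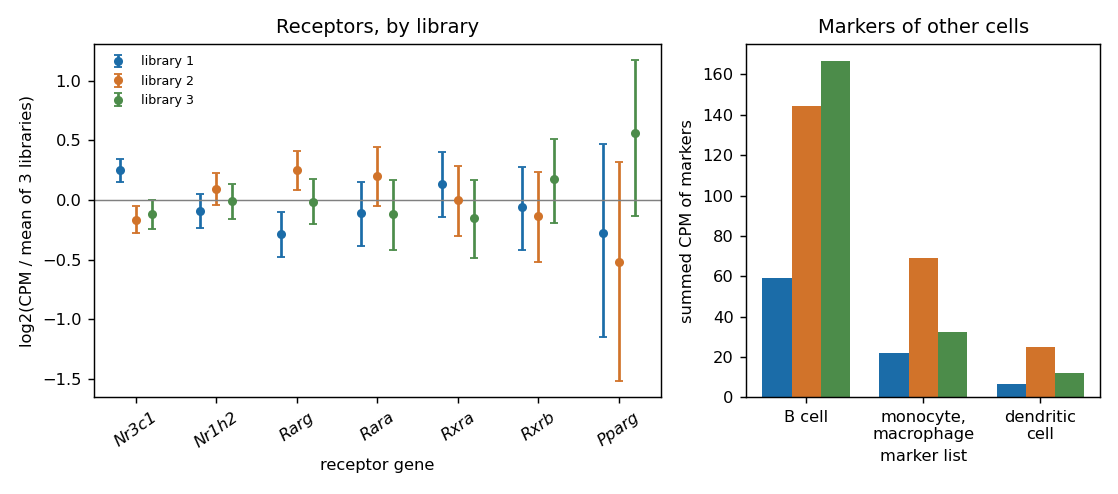
Left, log2 of each library's CPM over the mean of the 3 libraries for the 7 tested receptors, with exact 95% Poisson intervals; right, summed CPM of 3 marker lists in the same libraries. Nr3c1 stood above the mean in library 1 and Rarg below it, and library 1 had the lowest sum in all 3 marker lists.

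The libraries also differed in summed markers of other cells. The 8 B cell markers summed to 59.1 CPM in library 1, 144 in library 2 and 167 in library 3, with 7 of 8 detected and Pax5 at 0, 1 and 1 counts. The 8 dendritic cell markers summed to 6.33, 24.7 and 12.2 CPM, with 1 of 8 detected and Clec9a at 0. Library 1, the one with the fewest such counts, was the one with the highest Nr3c1 and the lowest Rarg. The part of these cells in the Nr3c1 and Rarg differences was not tested.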

How the data were processed

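Poly(A) RNA-seq counts of 3 technical libraries of 1 biological replicate of mouse Treg cells were used. The authors deposited unscaled whole-number counts per gene, made, per the notes deposited beside them, from alignments to mm10 with GENCODE M4. Aligner, counter, strand use, duplicate handling and the counting of untranslated bases: not given in the sources used here. Some genes with many counts per base, such as Nfkbia, had nearly equal counts in libraries of unequal size. Their CPM was thus higher where the library total was lower. The part of this in the chi-square calls of such genes was not tested.

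Symbols (22195 of 22457), coordinates and coding lengths came from GENCODE M21 on GRCm38, the same assembly. CPM used the library total. Libraries (2782259 to 3316275 counts) were compared per gene by a chi-square test (2 degrees of freedom), adjusted by Benjamini-Hochberg over the 10043 genes that summed to at least 30 counts, at a threshold of 0.05. edgeR 4.0.16 quasi-likelihood and DESeq2 1.42.0 (R 4.3.3), each library against the other libraries, were alternatives. All p-values compare libraries, not conditions. The scripts (Python 3.11.15, scipy 1.17.1) were tested on simulated data. Poisson and Clopper-Pearson intervals are exact, at 95%, and cover counting error only.

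The receptors and gene lists were chosen with earlier results of these data known, and the count range from 200 to 2090 after seeing the data. Named list genes are up to 5 by highest CPM, not scaled for length, up to 4 called genes with the largest highest-to-lowest ratio, and, by counts, genes below detection chosen after their values were seen. Some items of the lists and sequences are not reported here.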

Additional observations from a re-analysis of the deposited data

How the results depend on the processing

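The number of receptors that differed between libraries was 2 by the chi-square test and depended on the error model, with 0 by edgeR and 0 by DESeq2; it ranged from 0 to 2 when a library was left out. Of the related genes, markers of other cells included, 42 differed by the chi-square test, which called 22.7% of all genes tested. Their number was 20 to 28 when a library was left out. The share called varied by list: 6 of 7 tested B cell markers and 5 of 7 Treg markers, but 0 of 2 oxysterol genes. By edgeR 6 differed, namely 3 B cell, 1 monocyte and macrophage and 1 dendritic cell marker and 1 LXR responsive gene. By DESeq2 0 differed. Over all genes the chi-square test called 2277 of 10043 tested (22.7%). Without library 1, 2 or 3 it called 1247, 1466 and 904. Over all genes, edgeR called 44 (0.438%) and DESeq2 2. TMM scaling, DESeq2 size factors and other count minimums kept Nr3c1 and Rarg as the called receptors. The neighbour steps without overlap numbered 4, 6 by exon bases, and 4 to 7 when a library was left out. Leaving a library out can only narrow a range, so a higher number there does not strengthen the order. The ratio of Nr1h2 to Nr3c1 per coding base reversed to 0.999 without library 2, and was 1.06 to 1.22 without the others; it was 1.41 by exon bases. By exon bases the shares of Rxra and Ppard were 51.4% and 13.04%. Of the 10 receptors, 8 were detected, 9 at 0.5 CPM, by a mean of 1 CPM or without library 2, and 7 at 2 CPM. No paired analysis was possible because there is 1 group. Nr1h3, Ppard and Vdr had under 30 summed counts, and lower minimums called none of them.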
